A study of Homo sapiens with 6 samples.

Results

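The accessible regions around 3 genes of the RUNX family, their shared partner CBFB, and 4 genes of Notch signalling were examined in GM12878, a lymphoblastoid cell line made by infecting human B cells with Epstein-Barr virus. The members were RUNX1, RUNX2, RUNX3, CBFB, RBPJ, NOTCH1, NOTCH2 and HES1. A peak counted where at least 1 bp of it lay within a gene or the 50 kb on each side of it, in the GENCODE version 44 models of the GRCh37 build, which is the same assembly as hg19. Peaks of all lists that overlapped or adjoined were joined into 56447 consensus regions, and 59 of these lay in the windows of the 8 genes. The regions of each gene are numbered along the chromosome.

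The data were 6 peak lists from bulk ATAC-seq, an assay in which the Tn5 transposase cuts and tags open chromatin. By the sample records, all cells were fixed in 1% PFA, lysed with 0.05% Igepal and transposed for 30 min at 37 °C. They also give a stop with 40 mM EDTA, reversal of crosslinks at 65 °C, which ran overnight, and 10 min at 80 °C. The paper's methods describe the 0.05% Igepal, the EDTA stop and the 80 °C step only for the bulk workflow without purification. Whether the old buffer libraries had these steps is therefore uncertain. The 3 protocols are named by how crosslinks were reversed, with 2 replicates each, and may also differ in those steps. The old buffer held 1% SDS and was followed by DNA purification, and the new buffer held no SDS and was used with purification or without it. Whether the replicates were separate cultures is not stated, so p-values measure only the spread between these libraries. Values by library are given below in the order old buffer 1 and 2, new buffer purified 1 and 2, and new buffer unpurified 1 and 2.

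RUNX proteins are transcription factors that bind DNA as a pair with CBFB, a subunit that does not bind DNA itself. Each RUNX gene has a distal promoter, P1, and a proximal promoter, P2, which give proteins with different first residues. Notch receptors are cut after they bind a ligand, and the freed intracellular part joins RBPJ, a DNA-binding protein that otherwise holds target genes such as HES1 silent. In cells that carry Epstein-Barr virus, the viral protein EBNA2 also reaches DNA through RBPJ, and RUNX3 is known as the main RUNX gene of such lines.

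The libraries held 30136 to 38023 peaks, and the median peak had 20 to 22 reads at its summit, solved from the listed fold enrichment and p-value. The relative depth, taken from the lowest local background, differed by at most 1.24 times. Of the B cell markers, MS4A1, EBF1, CD74 and CD40 had a promoter peak in all 6 libraries, CD79A in 4, and CD79B, PAX5 and FCER2 in 1 library each. Of the T cell markers BCL11B had a promoter peak in all 6 libraries and the other 4 in none, of the erythroid and myeloid markers CD14 had one in 4 libraries and the other 4 in none, and of the 4 epithelial and liver markers none had one.

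The stretches that carry the main promoter findings are printed first, all from the plus strand of GRCh37, outside exons, and with the letters searched for in capitals. For RUNX proteins these were TGTGGT and for RBPJ GTGGGAA, each on both strands. The first 3 are the bases upstream of RUNX3 P1, RUNX3 P2 and RUNX1 P1, shown because they differ in how many RUNX motifs they hold, and these genes lie on the minus strand. The fourth is upstream of HES1, whose strand is plus.
RUNX3 P1, chr1:25291613-25291751: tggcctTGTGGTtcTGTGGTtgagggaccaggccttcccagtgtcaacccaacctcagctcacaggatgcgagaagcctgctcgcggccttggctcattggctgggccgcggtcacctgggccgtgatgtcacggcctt
RUNX3 P2, chr1:25256768-25257017: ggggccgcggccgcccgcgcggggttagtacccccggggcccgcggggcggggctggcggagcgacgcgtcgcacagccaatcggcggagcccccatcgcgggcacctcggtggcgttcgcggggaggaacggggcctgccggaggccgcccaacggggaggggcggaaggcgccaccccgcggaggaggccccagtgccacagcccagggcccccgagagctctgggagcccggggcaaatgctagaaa
RUNX1 P1, chr21:36421642-36421891: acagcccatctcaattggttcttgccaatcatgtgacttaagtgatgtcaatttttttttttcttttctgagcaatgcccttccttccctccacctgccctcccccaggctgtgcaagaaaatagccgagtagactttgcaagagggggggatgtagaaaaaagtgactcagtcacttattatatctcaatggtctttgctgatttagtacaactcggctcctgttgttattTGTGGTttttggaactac
HES1, chr3:193853687-193853936: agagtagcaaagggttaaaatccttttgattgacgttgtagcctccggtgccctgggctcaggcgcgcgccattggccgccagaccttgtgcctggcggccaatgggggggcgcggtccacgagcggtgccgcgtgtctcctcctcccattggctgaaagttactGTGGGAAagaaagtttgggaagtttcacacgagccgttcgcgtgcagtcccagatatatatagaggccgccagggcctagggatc

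Both promoters of RUNX3 were open in every library. At P1, whose start lies at chr1:25291501, the reads at the summit were 40, 28, 44, 32, 39 and 37, and the peak stood in the strongest 19.0%, 26.6%, 11.7%, 25.3%, 23.5% and 23.4% of its library by −log10 q. At P2, at chr1:25256767 and 34.7 kb downstream, the summits had 39, 22, 43, 29, 32 and 44 reads. The P1 ranks stayed between 11.7% and 26.6%, while those of P2 ran from 17.4% in the second unpurified library to 75.3% in the second old buffer library. The median rank was 23.5% for P1 and 31.8% for P2. By the mean rank over libraries P1 stood at 21.6% and P2 at 35.9%. The median of that mean was 22.2% for all start site groups open in every library.

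RUNX1, which is needed to form the first blood stem cells, had a P1 peak in every library and a P2 peak in all but 1, both with fewer summit reads than either RUNX3 promoter in the same library. P1 lies at chr21:36421567-36421641, and its region, which spans the first exon, had 22, 19, 29, 17, 25 and 21 reads at the summit. Its rank ran from 27.4% in the first purified new buffer library to 59.7% in the second, with a median of 54.2%. By the mean rank over libraries, 14.4% of the start site groups open in every library were weaker. P2, 160.7 kb downstream at chr21:36260987, was called in 5 libraries with 18 to 24 reads, and not in the second old buffer library. Nearby, region 6 was called only in the first unpurified library, with 21 reads, and region 8 only in the second purified new buffer library, with 15 reads.

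RUNX2, the factor that directs bone formation, had no peak in any library within 1 kb of P1 at chr6:45296054-45296464 or of P2 at chr6:45390222-45390314. This says only that no peak passed the threshold there. Between the promoters, in a RUNX2 intron, region 1 had 32, 30, 36, 31, 47 and 45 reads, and this is the promoter of SUPT3H, a gene for a part of a coactivator complex that overlaps RUNX2 on the opposite strand.

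CBFB had a single promoter region, at chr16:67062635-67063480, called in every library with 31, 19, 19, 30, 38 and 31 reads. It ranked from 18.4% in the first unpurified library to 60.6% in the second old buffer library. The replicates of both purified protocols lay far apart in rank.

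**Figure D1:**
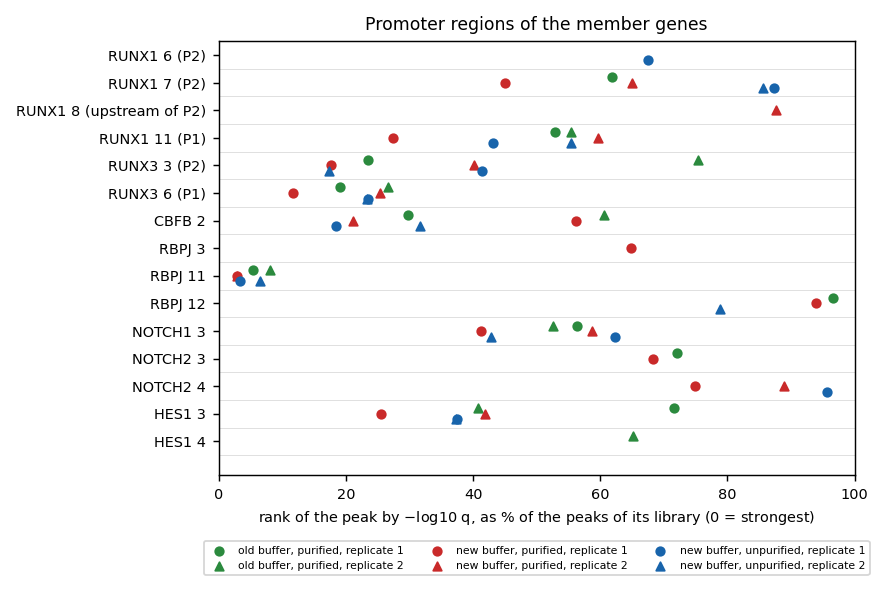
Each row is a promoter region of a member gene and each point a library that called it, placed by the rank of its peak by −log10 q in percent of the peaks of that library, with colours for the 3 protocols and circles and triangles for replicates 1 and 2. RBPJ region 11 lies at 2.86% to 8.09% in all 6 libraries, the RUNX3 promoters between 11.7% and 75.3%, and RUNX2 has no row because no peak was called at its starts.

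RBPJ, the DNA-binding hub of the Notch pathway, had the strongest region of all 59. Region 11, at chr4:26320547-26321728, had 73, 60, 86, 76, 86 and 71 reads at the summit and ranked at 5.34%, 8.09%, 2.86%, 2.93%, 3.31% and 6.43%. No other member region had more than 47 reads in any library, and of the start site groups open in all libraries 86.2% ranked weaker. The region covers the starts at chr4:26321258-26321332. The starts of the reference transcript lie downstream and were covered by region 12 only in the first old buffer, first purified new buffer and second unpurified libraries, with 29, 30 and 32 reads, but at ranks of 96.6%, 94.0% and 78.8%, where the local background was higher. The start of the longest gene model, near chr4:26165077, was called in 1 library with 14 reads, and none of the other RBPJ start groups had a peak.

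NOTCH1, a receptor, was open at its main start in every library, with 21, 22, 27, 21, 22 and 28 reads and ranks from 41.3% to 62.4%. A second annotated start inside the gene, at chr9:139407300, was called in none. NOTCH2, the receptor needed for marginal zone B cells, had no promoter region called in all libraries. Region 3 was called in the first old buffer and first purified new buffer libraries with 14 and 15 reads, and region 4 in both purified new buffer libraries and the first unpurified one with 14, 11 and 11 reads. The second old buffer and second unpurified libraries therefore had no peak at the NOTCH2 start. Near-identical copies of the first exons of NOTCH2 lie elsewhere in the genome, and reads that map to several places were removed by the authors, so the NOTCH2 promoter values are uncertain.

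At HES1, a repressor and a classic Notch target, the open region lay upstream of the start. Region 3, with its summit 1.1 kb before the start at chr3:193853937, had 29, 32, 45, 34, 41 and 40 reads and was called in every library. Region 4, at the start itself, was called only in the second old buffer library, with 26 reads. In that library the region 3 peak did not reach within 1 kb of the start, so its promoter call for HES1 rests on region 4.

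Across the 8 genes, 24 groups of protein-coding starts, joined where they lay within 500 bp, were tested for a peak within 1 kb. Of these, 8 had one in all 6 libraries, 5 in some and 11 in none, which is 33.3% called in all, beside 28% of the 39200 start groups of all protein-coding genes. RBPJ region 11 accounts for 2 of the 8. Counted by gene, 6 of the 8 members had a start group open in every library, all but RUNX2 and NOTCH2, beside 45.5% of 19794 genes. These counts depend on the 1 kb: with 500 bp on each side, 6 of the 24 start groups had a peak in all libraries. Of the 17 groups with a basic-set transcript, 8 were open in all. The genome-wide share was not computed for 500 bp or for basic-set groups, so the 28% is not a background for these counts.

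**Figure D2:**
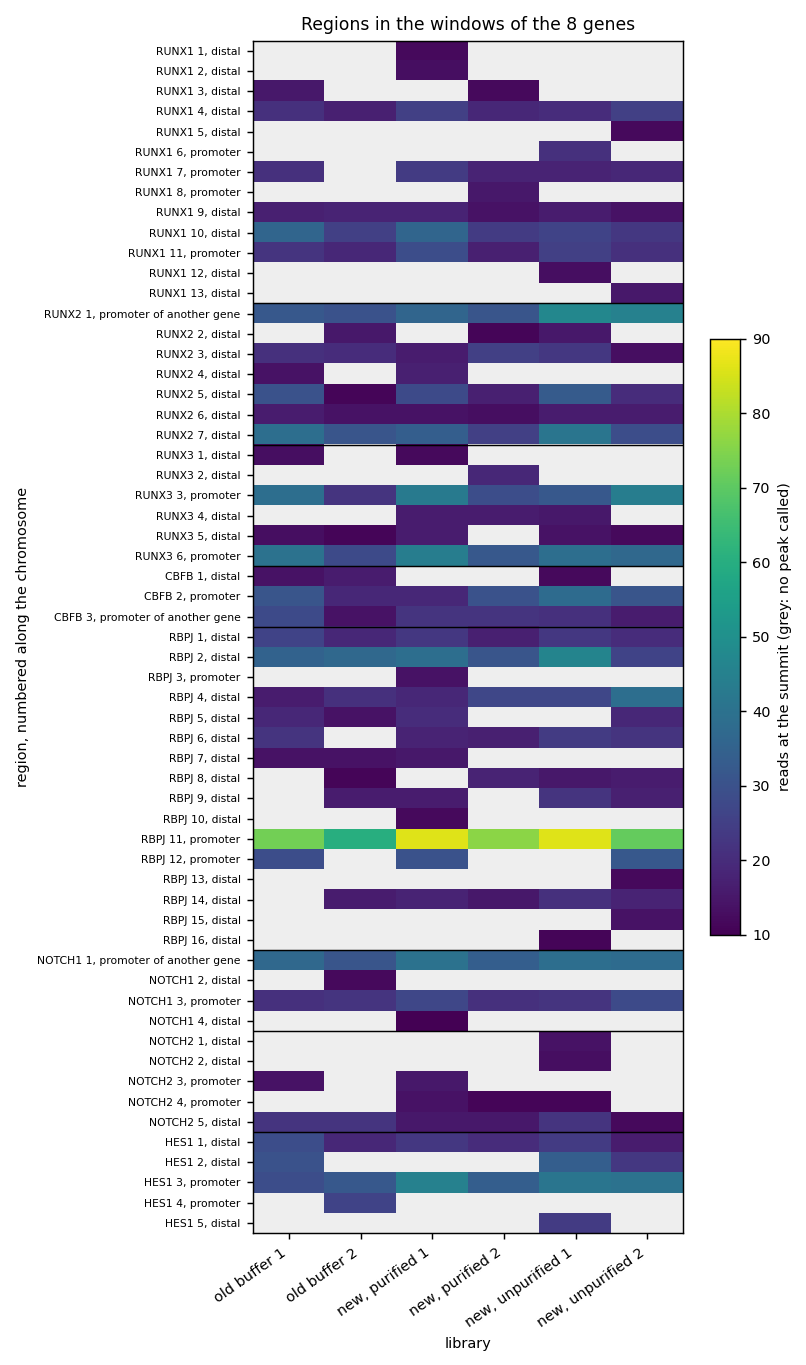
Rows are the 59 regions, columns the 6 libraries, colour the reads at the peak summit and grey no call. RBPJ region 11 stands out with 60 to 86 reads in every column, and 19 rows have colour in a single column.

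The share of regions found in every library was close to that of the genome. Of the 59 regions, 22 or 37.3% (95% Wilson interval 26.1% to 50.05%) were called in all 6 libraries, beside 35.5% of all consensus regions, and 19 or 32.2% were called in 1 library, beside 27.4%. The one-library regions were weak, with 10 to 26 reads and ranks of 64.9% to 98.9%. Intervals cover counting error only.

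Of the 59, 15 lay at a member's own starts, 3 at the promoter of another gene and 41 were distal. Of the 15 at a member's own starts 7, or 46.7%, were called in all 6, beside 64.2% of promoter regions genome-wide. The median rank of these 7 was 31.8%, beside 21.8% for all promoter regions called in every library. The 3 promoters of other genes, SUPT3H in RUNX2, PHAF1 beside CBFB and SEC16A beside NOTCH1, were called in all libraries. Among the distal regions 12 of 41, or 29.3%, were called in all 6, beside 27% of 43537 distal regions genome-wide, and their median rank was 38.1% beside 36.0%. Of the distal regions 23 lay in introns of the members, 3 in exons, 8 upstream and 7 downstream.

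**Figure D3:**
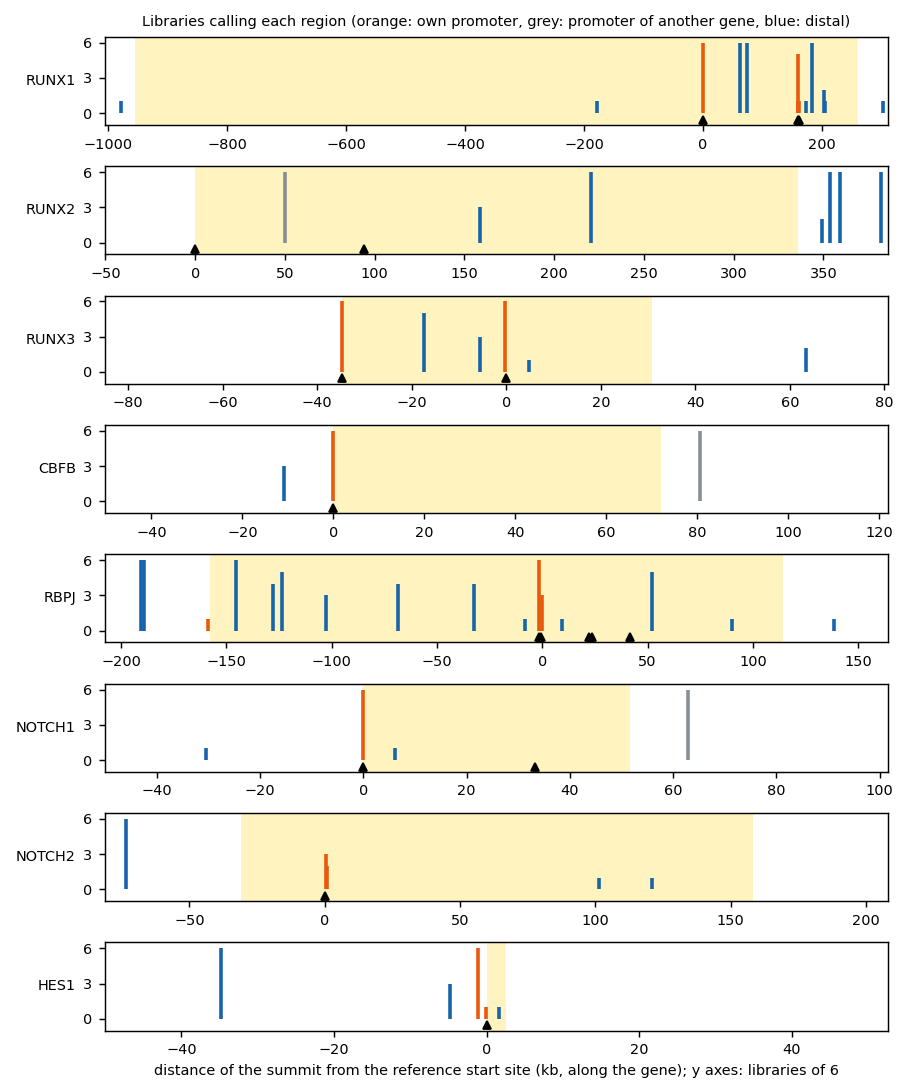
For each gene the x axis is the distance of a region's summit from the reference start in kb along the gene, the height of a line the number of the 6 libraries that called it, the shaded band the gene body and the triangles the groups of starts with a basic-set transcript. RUNX1 has lines at both promoters and at 3 distal intronic regions called in all libraries, and RUNX2 has none at its starts but 4 beyond its end, 3 of them called in all libraries.

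The strongest distal regions are printed next, taken by the highest mean −log10 q of each gene's distal regions, for RUNX1, RUNX2 and HES1. RBPJ region 4 follows because it has the lowest unadjusted p-value in the protocol comparison, and the RBPJ promoter region 11 because it is the strongest member region. All are from the plus strand of GRCh37 at the summit, and the capitals mark RUNX (TGTGGT), RBPJ (GTGGGAA), EBF1 (TCCCNNGGG), AP-1 (TGANTCA) and ETS (GGAAGT) letters on either strand.
RUNX1 region 10, chr21:36359229-36359528: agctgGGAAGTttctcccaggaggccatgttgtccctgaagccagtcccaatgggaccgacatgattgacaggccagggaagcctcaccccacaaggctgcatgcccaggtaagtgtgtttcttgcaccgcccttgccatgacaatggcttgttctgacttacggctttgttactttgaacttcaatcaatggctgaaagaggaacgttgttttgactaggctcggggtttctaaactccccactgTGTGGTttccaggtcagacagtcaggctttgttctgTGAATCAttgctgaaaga
RUNX2 region 7, chr6:45678214-45678513: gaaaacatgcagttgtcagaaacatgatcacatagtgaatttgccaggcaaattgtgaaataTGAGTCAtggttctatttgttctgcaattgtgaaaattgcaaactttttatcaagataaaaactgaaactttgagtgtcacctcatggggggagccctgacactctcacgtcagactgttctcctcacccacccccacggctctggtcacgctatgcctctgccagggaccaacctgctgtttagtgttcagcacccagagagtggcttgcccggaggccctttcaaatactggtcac
HES1 region 1, chr3:193818937-193819236: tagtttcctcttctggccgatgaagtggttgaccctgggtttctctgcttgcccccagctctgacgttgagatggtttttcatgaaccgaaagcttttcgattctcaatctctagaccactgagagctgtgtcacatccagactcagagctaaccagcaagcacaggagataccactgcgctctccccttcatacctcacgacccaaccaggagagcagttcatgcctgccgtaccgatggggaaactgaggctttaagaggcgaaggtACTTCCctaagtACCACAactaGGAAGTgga
RBPJ region 4, chr4:26177005-26177304: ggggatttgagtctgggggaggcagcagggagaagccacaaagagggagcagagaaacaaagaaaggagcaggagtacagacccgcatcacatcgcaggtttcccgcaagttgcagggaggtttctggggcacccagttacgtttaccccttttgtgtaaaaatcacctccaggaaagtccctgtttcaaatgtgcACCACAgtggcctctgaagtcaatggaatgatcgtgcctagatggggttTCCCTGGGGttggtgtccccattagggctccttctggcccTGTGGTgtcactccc
RBPJ region 11, chr4:26320843-26321142: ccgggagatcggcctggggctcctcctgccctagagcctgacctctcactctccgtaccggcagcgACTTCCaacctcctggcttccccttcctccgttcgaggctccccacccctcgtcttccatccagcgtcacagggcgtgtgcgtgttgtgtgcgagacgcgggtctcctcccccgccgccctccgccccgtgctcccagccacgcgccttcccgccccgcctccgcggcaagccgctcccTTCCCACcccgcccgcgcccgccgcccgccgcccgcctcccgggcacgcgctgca

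Region 10 of RUNX1 lies in the intron between P1 and P2, 62.2 kb from the P1 start, and had 36, 25, 36, 24, 26 and 23 reads. It outranked both RUNX1 promoters by its median of 26%, and in every library its summit had more reads than that of P1, 22, 19, 29, 17, 25 and 21. In the same intron region 9 was called in all libraries with 14 to 18 reads, and region 4, in an intron beyond P2, with 17 to 25 reads. The RUNX1 model reaches far upstream through 1 transcript outside the basic set, and the 2 regions found upstream of P1, 12 and 13, were called in 1 library each.

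For RUNX2 the open regions lay away from its promoters. Region 7, 382.3 kb past the P1 start and beyond the gene's end, had 39, 31, 34, 25, 41 and 29 reads, region 5 had 30, 11, 28, 17, 33 and 20, and region 6 had 13 to 16. Within the gene, region 3 overlaps an exon and was called in every library with 13 to 25 reads. Thus 4 distal regions were found in all libraries around a gene with no call at either promoter.

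RUNX3 differed in that the distal regions within the gene and 50 kb on each side were weak, and sites further out are not described here. Region 5, the strongest by mean −log10 q with uncalled libraries set to 0, lies in the intron between P1 and P2. It was called in 5 libraries with 11 to 16 reads, at ranks of 80.0% to 99.5%. The other 3 were called in 1 to 3 libraries. Of these, region 4 ranked higher than region 5 where both were called, at 66.1% to 91.3% with 15 to 16 reads in its 3 libraries.

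RBPJ had the most regions, 16, of which 13 were distal and 3 of those were called in all libraries. Region 2, 189.1 kb before the reference start and upstream of every annotated RBPJ transcript, had 35, 37, 39, 31, 46 and 26 reads and ranked at 11% to 38.2%. Region 1, beside it, had 17 to 26 reads. Region 4, in an intron of the longest model, had 16, 21, 19, 27, 27 and 39 reads, low in both old buffer and the first purified new buffer library and highest in the second unpurified one.

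Around NOTCH2 and HES1 the distal regions called everywhere lay upstream. NOTCH2 region 5, 73.3 kb before the start, had 22, 22, 15, 15, 22 and 12 reads, and both old buffer libraries were at 22 while both purified new buffer libraries were at 15. HES1 region 1, 34.9 kb before its start, had 29, 19, 23, 20, 24 and 16 reads. NOTCH1 and CBFB had no distal region in all libraries, and their strongest, NOTCH1 region 2 and CBFB region 1, were called in 1 and 3 libraries.

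By density, HES1 had 4.87 regions per 100 kb of window, RBPJ 4.30, RUNX3 3.62, NOTCH1 2.64, CBFB 1.74, NOTCH2 1.73, RUNX2 1.60 and RUNX1 0.987. The median of 20098 protein-coding genes was 2.56, so 4 of the members lay above it and 4 below. The RUNX1 window spans 1317 kb because it takes in the long upstream transcript.

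The RUNX letters were found in the 300 bases at the summit of 23 of the 59 regions, or 39.0%, beside 29.0% of all consensus regions. Among the regions called in all libraries they were in 11 of 22, or 50%, beside 27.1%, and among the distal ones in 18 of 41, or 43.9%, beside 34.3%. ETS letters were in 33.9% of the member regions beside 24.4%, and AP-1 letters in 22% beside 18.5%. RBPJ letters were in 3 regions, 5.08% beside 6.52%, and those were RBPJ region 11, NOTCH2 region 4 and HES1 region 4, all promoter regions, with none in the 41 distal regions. EBF1 letters were in 5.08% beside 6.71%. These are counts of short letter strings with no test, and a match is not a bound site.

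In the 250 bases before and 50 after a start, RUNX letters stood in 13.9% of all 39200 start groups and at least 2 of them in 1.40%. The RUNX3 P1 window held 2, at 131 and 123 bases before the start, 8 bases apart, as printed above. The RUNX1 P1 window held 1, at 238 bases before the start, and the region around its summit held 3. The RUNX2 P1 window held 4, at 178 and 74 bases before and 29 and 37 bases after the start, the last pair again 8 bases apart, although no library had a peak there. None of the 3 P2 windows held any.

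RBPJ letters stood in 6.26% of these windows and at least 2 of them in 0.253%. The window of the RBPJ start group under region 11 held 3, at 170 and 5 bases before and 37 bases after the start, of which the first is in the printed stretch. The HES1 window held 1, at 85 bases before the start, inside the stretch printed above.

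The wider Notch pathway was read by whether any protein-coding start of a gene had a peak within 1 kb. Among the receptors, NOTCH1 was open in all 6 libraries, NOTCH2 in 4, and NOTCH3 and NOTCH4 in none. Among the 5 ligands, DLL1 and JAG1 were open in all, at median ranks of 1.90% and 34.4%, and DLL3, DLL4 and JAG2 in none. Of the 8 proteases that cut the receptors 6 were open in all, ADAM10 and ADAM17 at 9.60% and 10.3%, and APH1B and PSENEN in 5 libraries each.

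All 6 RBPJ coactivators were open in every library, from MAML1 at 4.96% and MAML2 at 14.3%, which bridge the Notch complex to transcription, to MAML3 at 56.1%. Of the RBPJ corepressors 4 were open in all libraries, including SPEN at 11.9%, while L3MBTL3 was open in 5 and FHL1 in 1. Of the 5 enzymes that modify the receptors 3 were open in all, and RFNG in none. Of 5 inhibitors, NUMB at 18.7% and FBXW7 at 7.32%, a ligase that degrades the cut receptor, were open in all and DTX1 in none.

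Of the 10 target genes 4 were open in every library, HES1 at 39.7%, HES6 at 47.3%, HEY1 at 6.97% and HEY2 at 4.29%, NRARP was open in 5, and HES2, HES4, HES5, HES7 and HEYL in none. Of 11 RUNX partners 6 were open in all, among them CBFB and TLE4, a Groucho corepressor whose promoter peak had a median rank of 0.141%, while TLE1, TLE2 and CBFA2T3 were in none. The share for all genes is the 45.5% given above, and the lists were not tested.

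The protocols were compared by summit reads, by the totals in the 8 windows, and by which regions each one called. Summit reads were tested only in the 22 member regions called in all libraries, and none passed. That test cannot show which sites a protocol gains or loses, and the other 37 member regions were not tested. The totals could not pass, with 2 libraries in a group. The windows held 35, 32, 40, 33, 39 and 35 peaks, with means of 33.5 ± 2.12 (SD, n = 2) in the old buffer, 36.5 ± 4.95 in the new buffer purified and 37 ± 2.83 unpurified. The length in peaks was 15.8, 14.7, 19.4, 15.4, 18.6 and 17.2 kb, and the groups overlapped except for the unpurified and old buffer libraries. Over the whole genome the covered length was 16.9 and 15.0 Mb in the old buffer and 17.4 and 16.3 Mb unpurified.

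The difference in peak number was 3 for purified new against old buffer (exact permutation test, two-sided p = 0.667), 3.5 for unpurified against old (exact p = 0.667) and 0.5 for unpurified against purified new buffer (exact p = 1). For length it was 2.12 kb (exact p = 0.667), 2.65 kb (exact p = 0.333) and 0.530 kb (exact p = 1). With 2 libraries against 2 no p below 0.33 is possible, and all 6 adjusted p-values were 1. Leaving out the first purified new buffer library turned the difference in peak number against the old buffer to −0.5. As a share of the library's peaks, the windows held 0.0930%, 0.0919%, 0.105%, 0.110%, 0.108% and 0.102%, and every 95% Wilson interval of these shares held the range from 0.0787% to 0.129%. Both old buffer shares lay below the 4 new buffer shares, a difference that was not tested.

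**Figure D4:**
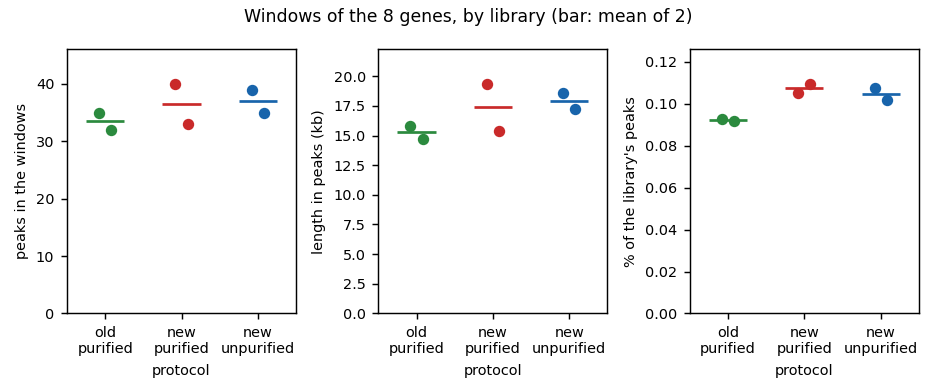
Points are the 6 libraries and bars the mean of the 2 libraries of each protocol, for the peaks in the 8 windows, the length in peaks in kb and the share of the library's peaks in percent. The lowest and highest counts are 32 and 40 peaks, and the protocols overlap in peak number.

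Summit reads were compared with limma over the 20064 regions called in all libraries. Purified new against old buffer gave 9 calls at an adjusted p under 0.05, or 0.0449%, unpurified against old 4, or 0.0199%, and unpurified against purified new buffer 0, or 0%. In the same order, 1722, 1693 and 865 regions had an unadjusted p under 0.05, so small p-values were more frequent in both comparisons with the old buffer. None of the 22 member regions was called in any of the 3 comparisons, where 1, 2 and 0 of them had an unadjusted p under 0.05. The median standard error of a member's log2 difference was 0.27. Differences well above that size could also be missed at this depth and with 2 libraries in a group, as 0.75 at RBPJ region 4 did not pass.

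The 3 member values with an unadjusted p under 0.05 did not pass after adjustment. For RBPJ region 4 the log2 difference of unpurified from old buffer was 0.75 ± 0.28 (SE, limma adjusted p = 0.423), with 27 and 39 reads against 16 and 21, so the libraries did not overlap. The SUPT3H promoter in RUNX2 had 47 and 45 reads against 32 and 30, a log2 difference of 0.49 ± 0.21 (limma adjusted p = 0.495). RBPJ region 11 had 86 and 76 reads in the purified new buffer against 73 and 60, a log2 difference of 0.32 ± 0.14 (limma adjusted p = 0.486).

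Calls that split cleanly by protocol were few. Of 49 regions called in the old or the purified new buffer libraries, RUNX3 region 4, in the intron between P1 and P2, and NOTCH2 region 4 were called in both of the latter and neither of the former, beside 1.83% of regions genome-wide, and CBFB region 1 was the reverse, beside 3.2%. Of 52 regions of the old buffer and unpurified libraries none was called only in both unpurified ones, beside 2.4%, and RBPJ region 7 was called only in both of the old buffer, beside 2.82%. Of 57 regions of the new buffer libraries, HES1 region 2 was called only in the unpurified ones, beside 2.7%, and none only in the purified ones, beside 1.76%. Apart from HES1 region 2, with 23 to 34 reads, the 5 split regions had 11 to 16 reads wherever they were called, where the weakest peaks of the lists had 8 or 9.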

How the data were processed

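Bulk ATAC-seq of fixed GM12878 cells was analysed, 1 peak list per library. The authors mapped trimmed reads to hg19 with Bowtie2 2.1.0, filtered them by pairing and mapping quality, removed duplicates with Picard 1.79, and called peaks with MACS2, whose version is not given in the sources used here. They describe pooling reads of like samples first, but each library here has its own list. The deposited columns used were the peak coordinates, the position of the summit, its fold enrichment over local background (a ratio), and its −log10 p-value and −log10 q-value. A score (the scaled −log10 q) was also deposited.

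Reads at the summit were solved from the deposited fold enrichment and p-value. Peaks were ranked by −log10 q within a library. A promoter reached 1 kb to either side of a GENCODE version 44 start. Totals were compared by exact permutation tests, 6 in all, adjusted by Benjamini-Hochberg. Log2 summit reads, centred on the library median, were fitted with limma 3.58.1 in R 4.3.3, with group means and no block, and a threshold of 0.05. The scripts (Python 3.11.15, SciPy 1.17.1, samtools 1.23.1) were tested on simulated data. Named regions were all promoter regions, each gene's strongest distal region and those split by protocol, and others were named after their values were seen. Members, lists and motifs were chosen with earlier results of these data known. That the purified new buffer samples were purified is taken from the study's supplementary legend, and their labels give only the buffer. Sequences were read from the GRCh37 genome. Groups of 2 were not tested for outliers. Some items of the lists and sequences are not reported here.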

Additional observations from a re-analysis of the deposited data

How the results depend on the processing

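Across 11 results and 107 alternatives, 9 reversed in direction, 5 of these by leaving out a library, and 11 counts of calls moved by over 1.5 times. The other 87 kept their direction or their count within that range, but differences between protocols changed in size. The difference in peak number of unpurified from purified new buffer became −1 with peaks of −log10 q of at least 5 and −2 with the 30136 strongest peaks of each library, and that in length −0.0865 and −0.219 kb. Leaving out each library in turn gave −0.5 to 6.5 peaks and 0.15 to 4.10 kb for purified new against old buffer, 1.5 to 5.5 peaks and 1.96 to 3.34 kb for unpurified against old, and −3 to 4 peaks and −1.45 to 2.5 kb for unpurified against purified. The limma calls for purified new against old buffer fell from 9 to 4 when scaled by the lowest background and to 1 on the listed fold enrichment, and ran from 1 to 15 without a library. Those for unpurified against old went from 4 to 0 on fold enrichment. They also changed without a library, even a purified new buffer one, because all libraries share 1 estimate of the spread. Those for unpurified against purified stayed at 0 on fold enrichment, but not in every fit without a library. The cause was not tested. No member region was called in any of these fits. The share called in all libraries was 39.0% to 41.5% and the start groups 8 to 10 without a library. Leaving out a library cannot lower the count of start groups, because fewer libraries must then call each. With a flank of 0 kb the share was 30%, and with 100 kb 35.2%. With 500 bp on each side of a start 6 groups had a peak in all libraries, and with 2 kb 8. With RUNX1 taken from basic transcripts only, chosen after seeing the data, 22 of 57 regions or 38.6% were called in all.

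The replicate numbers did not pair the samples, with correlations of −0.00417, −0.00264 and 0.0146. A replicate block gave 10, 6 and 0 limma calls, and left the peak differences at 3, 3.5 and 0.5. Depth limits the weak regions: with 10 to 26 reads, a call missing from a list does not show that the site was closed, and the lists hold no values below their threshold.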
